A study of Mus musculus with 4 samples.

Results

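Transcript levels of 7 genes of platelets and megakaryocytes were read on all 4 arrays of a mouse stem cell study. The genes were Pf4, Ppbp, Itga2b, Gp9, Gp5, Treml1 and Plek, out of 18193 genes on the array, and 9 probe sets were assigned to them alone. They were chosen by name with earlier results of these arrays in view, in which Pf4 and Plek were lower in embryoid bodies without Snai1. Their embryoid body differences are therefore a description. Control cells carried the genotype F/F and the others were Snai1 knockout, and neither the Cre or method that made the knockout nor the number of clones is given in the sources used here. Embryoid bodies, aggregates of embryonic stem cells that differentiate in suspension, were taken on day 5 after hanging drop culture. Teratomas, tumours of mixed tissue, came from the same kinds of cells. The cells went subcutaneously into hind limbs of nude mice (male, 6 weeks old), and tumours were collected at week 6. Nude mice have no thymus but keep their own platelets, granulocytes and macrophages, so teratoma RNA can hold host blood RNA. Each of the 4 groups had 1 array, so no value below has a replicate check and no test was possible.

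Platelets are cell fragments shed by megakaryocytes, and they carry receptors, granules and a cytoskeleton that the megakaryocyte made beforehand. Their main receptors are the fibrinogen receptor, made of the integrin chains of Itga2b and Itgb3, and the von Willebrand factor receptor, to which Gp9 and Gp5 contribute. In the yolk sac and in embryoid bodies the first megakaryocytes appear together with primitive red cells, and the Itga2b product, CD41, also marks the earliest blood progenitors. In bulk RNA, fewer cells of a type and less RNA per cell cannot be told apart.

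Values are log2 expression values. A level was taken as measured when it reached the median of all probe sets on its array, here called the floor, which was 4.71 for the control embryoid body, 4.73 for the knockout embryoid body, 5.08 for the control teratoma and 5.04 for the knockout teratoma. Values under the floor were replaced by it before subtraction, and a difference with 1 array below the floor is given as at least that many fold. A gene was called higher or lower from 2-fold, a log2 difference of 1. Over probe sets, Pearson's r was 0.982 between the embryoid body arrays, 0.985 between the teratoma arrays and 0.864 to 0.880 across tissues. The single Snai1 probe set read 4.78 in the control embryoid body, only just above the floor, and 3.45 in the knockout one, below it. It was also below the floor in the teratomas, at 3.59 for the control and 3.44 for the knockout. Whether it lies in the deleted part is not given. Genes that mark embryoid bodies (Pou5f1, Nanog, Eomes, Fgf5 and Afp) were above the floor in 5 of 5 cases on both embryoid body arrays, and 4 of them on both teratoma arrays. Genes of teratoma tissues, such as Gfap, Krt5 and Tff1, were above it in 7 of 7 cases on both teratoma arrays, against 5 in the control and 4 in the knockout embryoid body. These counts do not make the 2 embryoid bodies alike in level. Afp read 9.84 in the control and 5.20 in the knockout one. Fgf5 and Eomes were higher in the knockout embryoid body, by 2.17 and 1.72.

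Promoter sequences are shown for 4 of the genes because Snai1 binds DNA at an E-box and megakaryocyte genes are known targets of GATA and ETS factors. All 7 genes had 1 promoter in the RefSeq table of build GRCm38.p6, covering 250 bases before and 50 bases after the start site. The searched letters were CAGGTG for the Snail E-box, AGATAA or TGATAA for GATA and AGGAAG or CGGAAG for ETS, on both strands. The E-box letters were in 0 of the 7 windows, against 20.2% of all 32851 promoters of that length. GATA letters were in 2 of 7 (Pf4 and Gp5) against 18.6%, and ETS letters in 4 of 7 (Pf4, Itga2b, Gp9 and Gp5) against 46.5%. Pf4 had its ETS match 9 bases before the start site and its GATA match from base 37 after it, beyond the sequence printed here. Gp5 had 2 GATA matches, at bases -93 and -77, and an ETS match at -48. Itga2b had 2 ETS matches, at -125 and -43, and Gp9 had 1 at -16. No match overlapped another. A match is a run of letters and not a shown binding site, and a missing match covers this window only. The 250 bases before the start lie at chr5:90772185-90772434 on the plus strand for Pf4, chr5:90768268-90768517 on the plus strand for Ppbp, chr11:102469884-102470133 on the minus strand for Itga2b and chr16:30310782-30311031 on the minus strand for Gp5. Each is written along the gene's own strand, with ETS and GATA matches of either strand in capitals.
Pf4: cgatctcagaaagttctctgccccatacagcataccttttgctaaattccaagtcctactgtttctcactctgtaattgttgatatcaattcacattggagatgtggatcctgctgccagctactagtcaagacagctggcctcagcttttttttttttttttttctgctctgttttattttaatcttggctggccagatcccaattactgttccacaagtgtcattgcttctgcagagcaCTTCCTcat
Ppbp: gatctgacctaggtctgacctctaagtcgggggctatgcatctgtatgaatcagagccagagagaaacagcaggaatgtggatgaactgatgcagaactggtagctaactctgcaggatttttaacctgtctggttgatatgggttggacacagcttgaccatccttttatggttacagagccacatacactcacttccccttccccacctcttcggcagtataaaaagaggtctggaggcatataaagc
Itga2b: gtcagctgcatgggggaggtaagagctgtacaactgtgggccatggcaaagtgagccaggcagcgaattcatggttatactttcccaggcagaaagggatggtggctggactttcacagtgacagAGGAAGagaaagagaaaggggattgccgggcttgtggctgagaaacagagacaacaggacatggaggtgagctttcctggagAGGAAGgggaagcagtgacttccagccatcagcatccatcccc
Gp5: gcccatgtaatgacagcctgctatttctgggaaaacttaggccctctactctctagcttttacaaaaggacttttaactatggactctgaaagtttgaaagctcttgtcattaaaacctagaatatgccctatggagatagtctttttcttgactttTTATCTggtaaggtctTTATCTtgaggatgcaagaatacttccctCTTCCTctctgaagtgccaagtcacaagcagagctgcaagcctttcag

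In day 5 embryoid bodies, Pf4, Plek, Itga2b and Gp9 were at least 2-fold lower without Snai1. Gp5 and Treml1 did not reach 2-fold, and Ppbp was not measured in either embryoid body. Of the 6 genes measured, 4 were lower by at least 2-fold, where 3.98% of all 12282 measured genes were, and 0 were higher, where 2.18% were. Because the genes were chosen with this comparison known, nothing is read from that count. Plek, Gp9, Gp5 and Treml1 were above the floor in the control alone, so 4 of the 6 differences are bounds, and no median is given. The median over all measured genes was 0.03.

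The chemokines of the alpha granule were read first. Pf4 encodes platelet factor 4, which binds heparin and is released when platelets are activated. Its probe set read 9.87 in control and 5.18 in knockout embryoid bodies, both above the floor. This is a log2 difference of -4.69, or 25.8-fold, and ranked 6 from the lowest of all measured genes. A floor at the 65th percentile gave -3.63. Ppbp encodes the precursor of the neutrophil-attracting chemokine CXCL7 and lies next to Pf4 on chromosome 5, with no other protein-coding gene between them in RefSeq. It read 4.01 in control and 3.22 in knockout embryoid bodies, below the floor in both, so it has no fold there. The neighbouring pair thus differed in embryoid bodies in that only Pf4 was measured. The next chemokine genes on either side, Cxcl5 and Cxcl3, were below the floor on all 4 arrays.

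**Figure D1:**
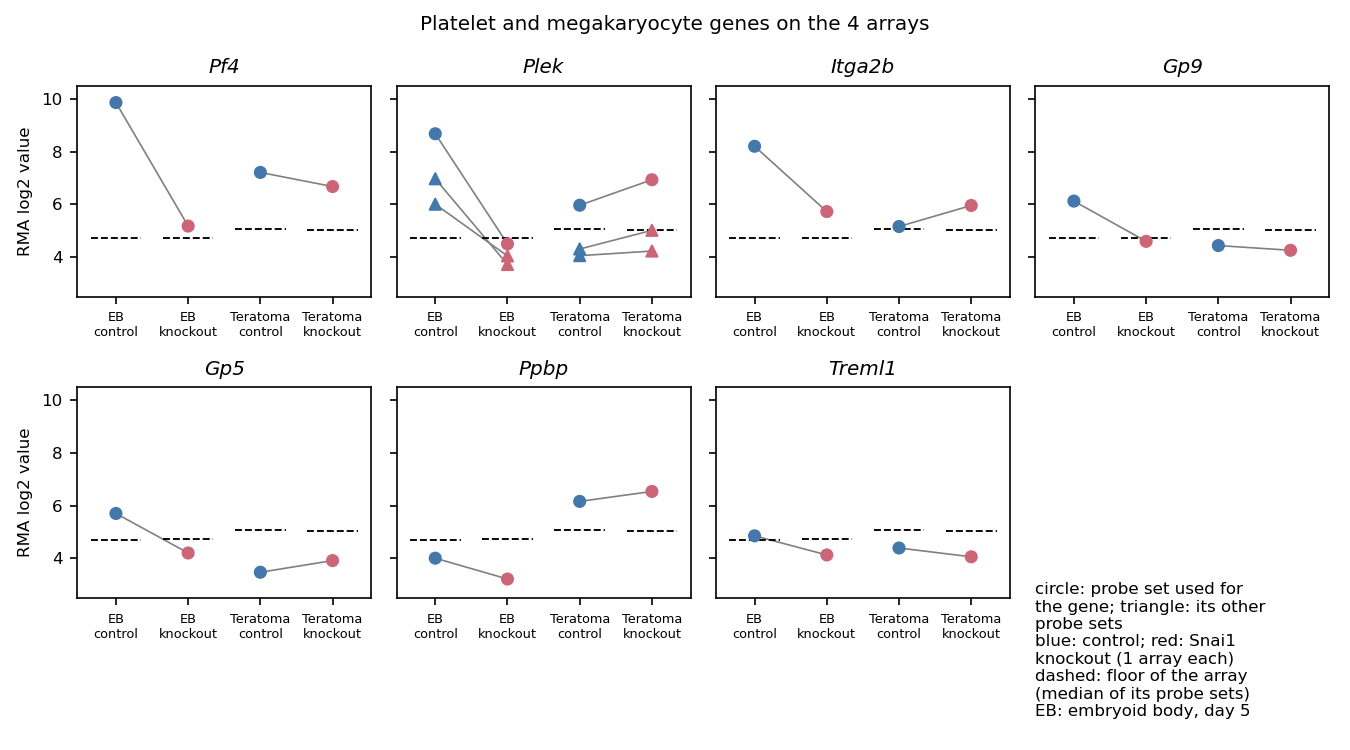
RMA log2 values (vertical axis) of the 7 genes on the 4 arrays (horizontal axis), with 1 array per group. Circles are the probe sets used, triangles the other Plek probe sets, and dashed lines the floor of each array. Pf4 read 9.87 in control and 5.18 in knockout embryoid bodies, whereas Ppbp was above the floor in teratomas alone.

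The receptor genes came next. Itga2b, the alpha chain of the fibrinogen receptor, read 8.21 in control and 5.73 in knockout embryoid bodies, a 5.58-fold lower level with both arrays above the floor. Gp9, a small leucine-rich subunit of the von Willebrand factor receptor, read 6.13 in the control and 4.60 in the knockout, which lay below the floor, so it was at least 2.63-fold lower. With the floor at the 65th percentile Gp9 was not measured. Gp5, another leucine-rich subunit of that receptor, read 5.71 and 4.21, and its bound of 1.97-fold stopped just short of the threshold. Without a floor, or with it at the 25th percentile, Gp5 passed the threshold, with a difference of -1.50. Treml1, a receptor stored in the granule membrane, read 4.86 and 4.13, which gave a bound of 1.09-fold. Its control value was only just above the floor. All 4 receptor genes read higher in the control than in the knockout, but Gp9, Gp5 and Treml1 were below the floor in the knockout, so only bounds can be given for them.

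Plek encodes pleckstrin, a substrate of protein kinase C in platelets that other blood cells also make. It was the only gene of the 7 with more than 1 probe set. The brightest read 8.69 in control and 4.50 in knockout embryoid bodies, at least 15.5-fold lower. The other Plek probe sets read 6.98 against 3.72 and 6.01 against 4.05, with bounds of -2.24 and -1.28. All 3 were above the floor in the control and below it in the knockout, so they differed in size and not in direction. The mean of the Plek probe sets differed by -2.49. For scale, measured probe sets of 1 gene differed from each other with a pooled SD of 0.29 in this comparison, over 4977 genes. That spread comes from shared RNA and leaves out variation between cultures.

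Of 69 other genes of megakaryocytes and platelets, grouped by role, 64 were on the array and 54 were measured in embryoid bodies. Of these, 14 (25.9%) were lower by at least 2-fold and 0 higher, where 3.98% of all 12282 measured genes were lower and 2.18% higher. The median of the 54 was -0.43. List medians here and below include bounds. At or above the floor were 54 genes in the control and 42 in the knockout. A gene above it in the control alone could hardly come out above 0. These lists were written with earlier results of these data known. The count lower was 6 of 16 for transcription factors, 2 of 11 for receptors, 3 of 12 for granule genes and 3 of 15 for signalling and cytoskeleton.

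Of 16 megakaryocyte transcription factors, all measured, 6 were lower and 0 higher, with a median of -0.63, or -0.33 with probe sets averaged. Nfe2, which drives the last steps of platelet formation, read 8.92 in the control and 4.38 in the knockout, at least 18.2-fold lower. Gata1, the factor shared by red cells and megakaryocytes, read 7.19 and 5.47, a 3.31-fold lower level. Tal1 and Lyl1, related factors of early blood, differed by -1.97 and -2.25. Gfi1b and Meis1 were the other lower genes. The rest did not reach 2-fold and ranged from -0.96 for Mecom to 0.26 for Mrtfa. Among them Runx1 differed by -0.06, Gata2 by 0.03 and Fli1 by -0.35. Of the 16 factors, 12 lay below 0 and 4 above.

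Of 19 receptor and adhesion genes on the array, 11 were measured and 2 were lower. Itgb3, the beta chain that pairs with the Itga2b product, read 9.26 in the control and 5.73 in the knockout, 11.6-fold lower, but its other probe set differed by -0.16. Gp1bb, the subunit that anchors Gp9 in its complex, was at least 2.80-fold lower, with another probe set at -0.25. Clec1b, the podoplanin receptor of platelets, read 8.53 in the control, and its log2 difference of -0.52 did not reach the threshold. Gp6, Selp, P2ry12 and 4 others were below the floor on all 4 arrays, so these 7 genes have no fold.

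Of 12 measured genes of granule cargo and granule formation, 3 were lower, all close to 2-fold. Thbs1, a large adhesive glycoprotein, differed by -1.16 with another probe set at -0.60. Clu, clusterin, differed by -1.05, with its other probe sets from -1.45 to -0.76. Vwf, von Willebrand factor, differed by -1.04. Endothelial and other cells make these proteins too, and the median of the group was -0.05.

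Of 15 measured genes of signalling, enzymes and cytoskeleton, 3 were lower, with a median of -0.49. Of the 15, 14 lay below 0. Since 15 were at or above the floor in the control and 10 in the knockout, that sign count was partly fixed in advance. Tubb1, the platelet form of beta-tubulin, read 8.19 in the control and 4.23 in the knockout, with a bound of -3.45 on the log2 scale. Fermt3, kindlin-3, which switches on blood cell integrins, read 9.71 and 6.33, 10.4-fold lower, and its other measured probe sets differed by -3.22 and -1.90. Gng11 differed by -1.11.

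**Figure D2:**
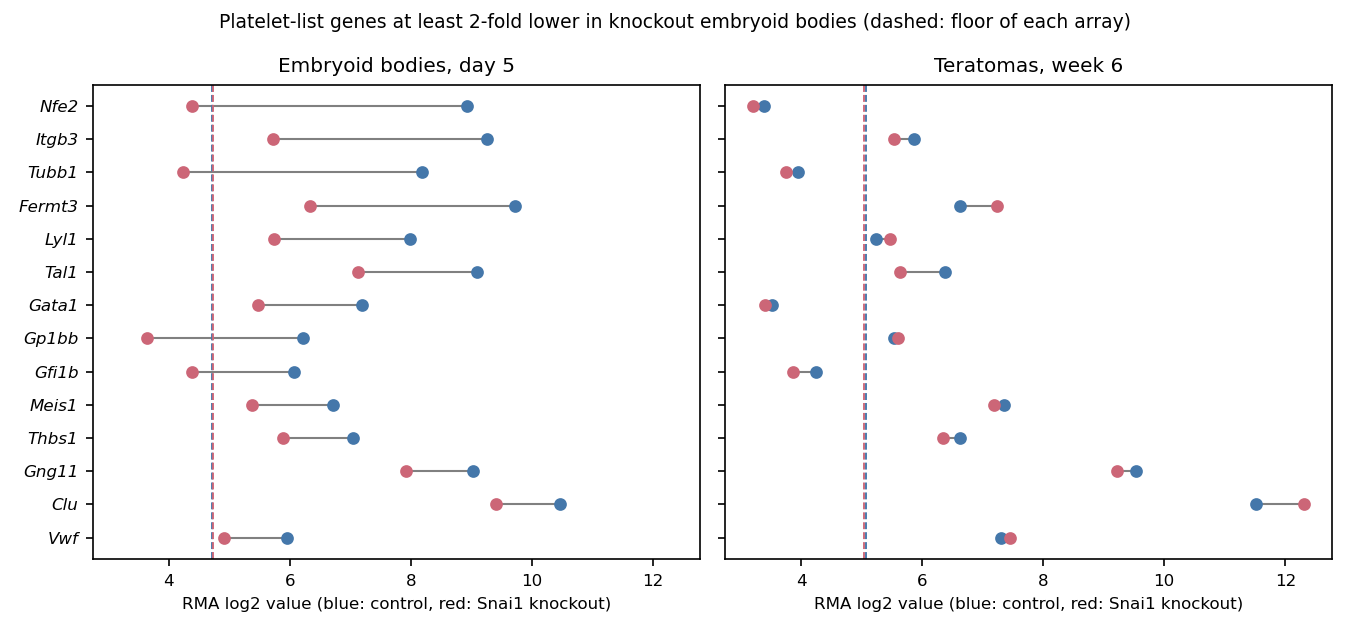
RMA log2 values (horizontal axis) of the 14 listed platelet genes that were at least 2-fold lower in knockout embryoid bodies, in embryoid bodies (left) and teratomas (right), 1 array per point. Nfe2, Tubb1, Gata1 and Gfi1b were below the floor on both teratoma arrays, and the other 10 genes were above it on at least 1.

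Other cell types were read beside these genes, in a comparison where 3.98% of all measured genes were lower and 2.18% higher. Of 10 measured erythroid genes, 8 were lower and 0 higher, with a median of -3.57, and their summed linear level was 38498 in control and 4695 in knockout embryoid bodies. The embryonic globin gene Hba-x read 13.51 and 9.13, and Klf1, a red cell regulator, read 8.43 and 4.73, with a bound of -3.70. The erythroid median was -1.06 without shared-suffix probe sets, those whose name marks a possible match to other transcripts, and -2.70 with probe sets averaged. Of 12 endothelial genes, 5 were lower and 1 higher, with a median of -0.86 and summed levels of 3081 and 2664. The endothelial median was -1.62 without shared-suffix probe sets and -0.55 with a 65th percentile floor. Cldn5, an endothelial junction gene, differed by -2.87. Of 17 macrophage and leukocyte genes, 10 were at or above the floor in the control and 6 in the knockout, and 2 of the 10 measured were lower, with summed levels of 692 and 436. Csf1r, the macrophage growth factor receptor, differed by -2.24 with other probe sets from -1.10 to -0.24, while Ptprc, the common leukocyte antigen, was below the floor in both embryoid bodies. Of 8 early blood progenitor genes on the array, 7 were measured, 2 lower (Tal1 and Cd34), with summed levels of 1680 and 1426. Kit differed by 0.85, with another probe set at 1.15, past 2-fold. All 6 neutrophil genes were below the floor in both, as were 5 of 6 mast cell genes, all but Kit. The part of these cell types in the platelet gene differences was not tested.

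**Figure D3:**
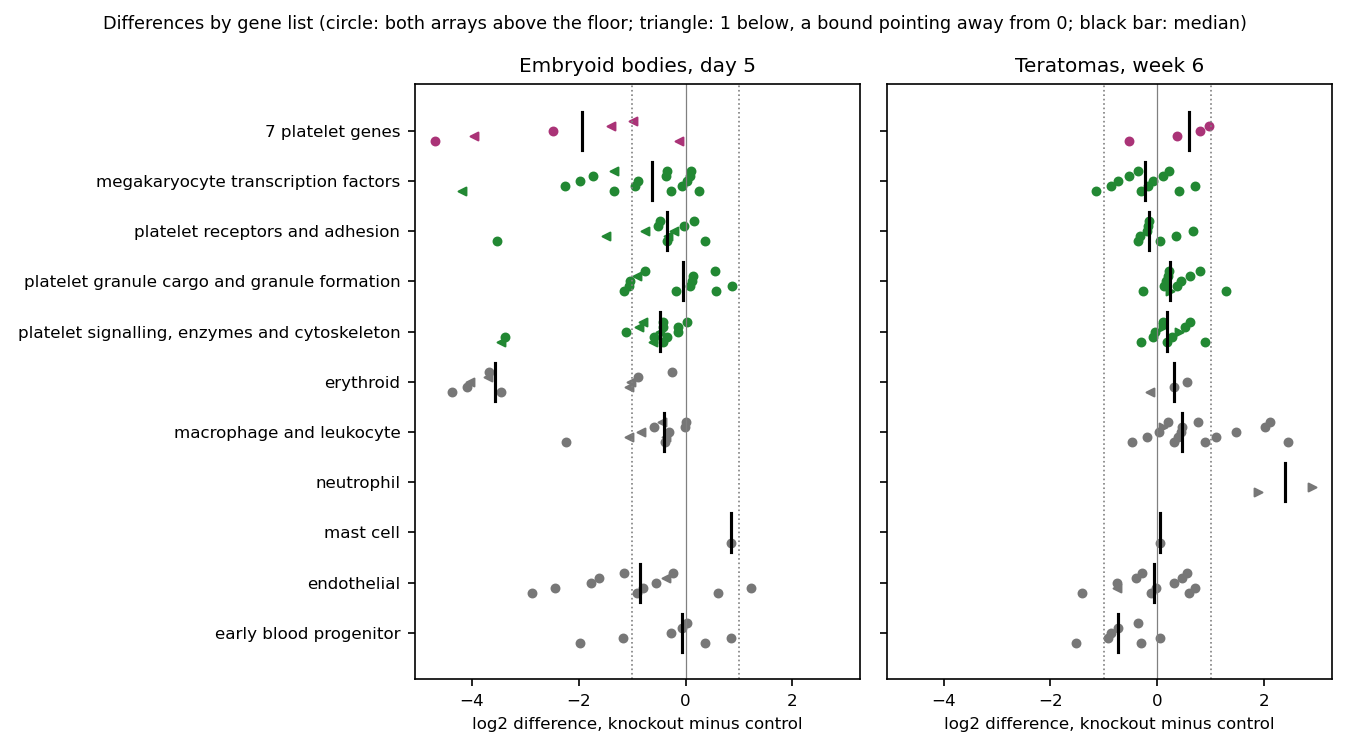
Log2 differences, knockout minus control (horizontal axis), for the 7 platelet genes, the 4 platelet lists (green) and lists of other cell types (grey), in embryoid bodies (left) and teratomas (right). Each point is 1 gene and black bars are medians, bounds included. Of the 7 platelet genes, 6 were measured in embryoid bodies, 4 of them as bounds, and 4 in teratomas, where their median was 0.59.

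In week 6 teratomas, none of the 4 measured platelet genes reached 2-fold in either direction. Plek, Itga2b and Ppbp read higher in the knockout and Pf4 lower. Gp9, Gp5 and Treml1 were below the floor in both teratomas. Among all 12197 measured genes, 1.07% were lower and 3.25% higher, and the share of calls that were higher was 75.2%, or 64.5% with quantile normalization. The median was 0.59 for the 4 genes and 0.06 for all genes.

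Pf4 read 7.22 in the control and 6.68 in the knockout teratoma, a log2 difference of -0.54. Ppbp read 6.17 and 6.55, a difference of 0.38. The direction of these neighbouring chemokine genes was therefore opposite, with both differences under 2-fold. Itga2b read 5.16 and 5.96, a difference of 0.80, with the control just above its floor. Plek read 5.97 and 6.94, a difference of 0.97, or 1.96-fold. With arrays centred on their medians or quantile normalized, Plek differed by 1.01 and 1.07 and passed 2-fold. With its probe sets averaged, it differed by 0.32, and its other probe sets were below the floor in both teratomas.

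Of 42 measured genes of the 4 platelet lists, 1 was lower and 1 higher, which is 2.38% each, against 1.07% lower and 3.25% higher over all genes. Both were picked out after their values were seen. Mecom, a factor of blood stem cells that other tissues express, read 8.88 in the control and 7.73 in the knockout. Srgn, the proteoglycan core of blood cell granules, read 9.22 in the control and was 1.28 log2 units higher in the knockout. Of the 14 listed genes lower in knockout embryoid bodies, 4 were below the floor on both teratoma arrays (Nfe2, Tubb1, Gata1 and Gfi1b). Itgb3 differed by -0.33 in teratomas and Fermt3 by 0.62, but the other measured Fermt3 probe sets differed by -0.34 and 0.21.

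Leukocyte genes differed beside these, where 3.25% of all measured genes were higher and 1.07% lower. Of 16 measured macrophage and leukocyte genes, 5 were higher in the knockout teratoma and 0 lower, with a median of 0.46, and 15 and 16 of 17 were at or above the floor in control and knockout, with summed levels of 4420 and 7312. Ctss, a lysosomal protease of macrophages, read 8.26 and 10.71. Ptprc read 6.74 and 8.86. Cd52 and Coro1a differed by 2.01 and 1.47. Others of the list hardly differed, such as Csf1r at 9.87 and 9.67 and Tyrobp at 7.90 and 7.93. Of the 16 genes, 14 lay above 0 and 2 below. Of the neutrophil genes, S100a8 passed the floor in the knockout alone, at least 7.43-fold higher. S100a9 did so too, by at least 3.70-fold, while Ngp, Camp, Elane and Mpo were below it. Erythroid genes had 3 and 2 of 11 at or above the floor, with summed levels of 1149 and 1605. Leukocytes make Plek as well, and their part in its difference of 0.97 was not tested.

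Levels were also set against each other across tissues. This comparison mixes tissue with RNA extraction, since embryoid body RNA was column-purified and teratoma RNA extracted with Trizol, and with the presence of a host. These cannot be told apart. The array medians, used as floors, also differed by tissue, at 4.71 and 4.73 in embryoid bodies and 5.08 and 5.04 in teratomas. The 3' minus 5' signal of Gapdh, a measure of RNA integrity, was 0.17 in the control and 0.10 in the knockout embryoid body. In teratomas it was 0.65 for the control and 0.40 for the knockout. The same measure for Actb was 0.38 in the control and 0.31 in the knockout embryoid body. It was 1.03 in the control and 0.85 in the knockout teratoma. Each of these comparisons also shares an array with the comparisons above.

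In control cells, 4 of the 7 genes were lower in the teratoma than in the embryoid body and 1 was higher, where 19.0% of 12956 measured genes were lower and 16.2% higher. The lower genes were Itga2b (-3.05), Plek (-2.72), Pf4 (-2.65) and Gp9, the last at least 2.07-fold lower. Ppbp was at least 2.75-fold higher. Centring arrays on their medians moved the median of all genes in this comparison from -0.18 to -0.55 and the share of calls that were higher from 46.1% to 27.2%, and these 5 calls held. With the floor at the 65th percentile, Ppbp was not called.

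In knockout cells Pf4 and Plek were higher in the teratoma. Of 4 measured genes, 3 were higher in the teratoma and 0 lower, where 19.8% of 12936 genes were higher and 19.8% lower. Pf4 was 2.83-fold higher, Plek at least 4.62-fold and Ppbp at least 3.51-fold. With its probe sets averaged, Plek differed by 0.66 and was not called, which left 2 genes higher. Itga2b differed by 0.23, and by -0.08 with arrays centred on their medians and -0.09 with quantile normalization, so its direction was not fixed. Median centring moved the median of all genes from -0.15 to -0.46 and the calls from 2564 lower and 2566 higher to 3786 lower and 2036 higher. Raising the floor to the 65th percentile left 0 of the 7 genes 2-fold higher, and Pf4 differed by 0.44.

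By gene, the order of the 4 arrays was as follows. Pf4 was highest in the control embryoid body, then the control teratoma, the knockout teratoma and the knockout embryoid body. Plek had the same top and bottom, with the teratomas in the other order. Itga2b was highest in the control embryoid body at 8.21, and its other 3 values lay between 5.16 and 5.96. Gp9, Gp5 and Treml1 were above the floor in the control embryoid body alone, so their other values have no order. Ppbp was above the floor in the teratomas alone. With 1 array per group, no neighbouring values in these orders can be said to differ beyond their spread.

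Genes with a pattern like that of Pf4 were ranked by the distance between profiles, each centred on its own mean of the 4 arrays, among 7080 genes with a range of at least 1 log2 unit. The nearest were Smoc2, a secreted matrix protein gene, at a distance of 0.57, Steap2, a metalloreductase gene, at 1.09, Apoc2, an apolipoprotein gene, at 1.15, Tent5c, a poly(A) polymerase gene, at 1.15 and Tff3, a trefoil peptide gene, at 1.15. None of these is in the platelet lists. Smoc2 read 9.11 in the control and 5.16 in the knockout embryoid body, with teratoma values of 6.68 for the control and 6.01 for the knockout. Plek lay at 1.20, with 6 of these candidates nearer to Pf4, and Itga2b at 2.01, with 56 nearer. Gp9 lay at 2.29 with 109 nearer, Gp5 at 2.46 with 178, Treml1 at 2.82 with 375 and Ppbp at 4.36 with 5687. Gp9, Gp5 and Treml1 were above the floor in the control embryoid body alone and Ppbp in the teratomas alone. Their distances therefore rest partly on values below it. The distances rest on 4 arrays and on values without a floor. Plek and Tent5c were below it in the knockout embryoid body, and Apoc2 on all arrays but the control embryoid body. Other Steap2 probe sets differed in embryoid bodies by -1.47 to -0.13 against -3.21 for the one used. For Tent5c the values were -1.08 against -3.17, and for Smoc2 -2.73 against -3.95.

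**Figure D4:**
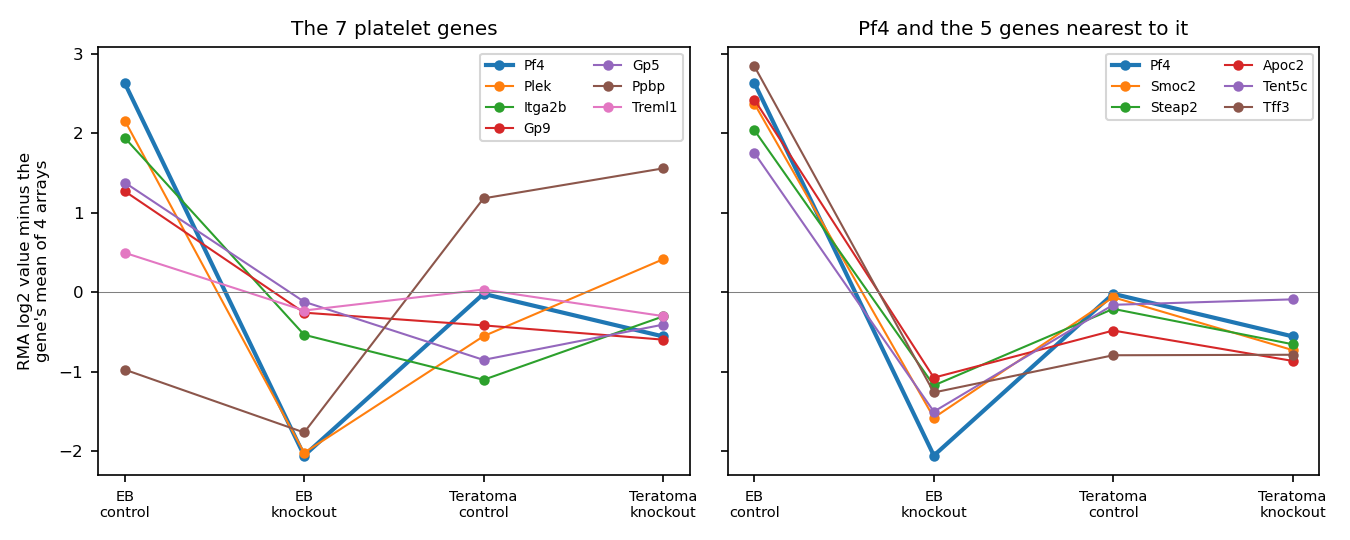
RMA log2 values minus the gene's mean over the 4 arrays (vertical axis) for the 7 platelet genes (left) and for Pf4 with the 5 genes nearest to it (right), 1 array per group on the horizontal axis. Values below the floor are drawn as deposited. This holds for Ppbp in both embryoid bodies and for Gp9, Gp5 and Treml1 outside the control embryoid body. It also holds for Plek and Tent5c in the knockout embryoid body and for Apoc2 outside the control embryoid body. Smoc2 lies 0.57 from Pf4 and Plek 1.20.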

How the data were processed

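The 4 RNA samples, 1 per group, were amplified from 250 ng of total RNA and hybridised to Affymetrix mouse arrays, per the labels' protocols. The authors deposited log2 values per probe set, made with affy and RMA per the submitters' processing notes. RMA corrects background, normalizes by quantiles and summarises probes. The sources used here give no version and do not say whether the arrays were processed jointly.

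Of 45037 probe sets without controls, 34945 named 1 gene in the platform annotation, 932 several and 9160 none. Probe sets naming several genes were left out. Each gene took its probe set with the highest mean. Floored differences, counts and medians were computed in Python 3.11.15 with pandas 2.3.3, and the code was checked on simulated data. No test was run, and the number of arrays limits the precision.

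The 7 genes and all gene lists were chosen with earlier results of these data known. At most 4 genes per list were named, those with the largest embryoid body difference, and for macrophage, neutrophil and mast cell lists also the largest teratoma difference. Other genes named were chosen after their values were seen. The 5 genes most like Pf4 were named as well. Other settings tried were another floor, scaling, fold threshold and choice of probe set.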

Additional observations from a re-analysis of the deposited data

Results flagged for a closer look

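Plek and Itga2b differed in opposite directions between knockout and control in the 2 tissues. Plek was lower in knockout embryoid bodies, at least 15.5-fold, and differed by 0.97 in teratomas, or by 0.32 with its probe sets averaged. Itga2b was 5.58-fold lower in knockout embryoid bodies and differed by 0.80 in teratomas. With 1 array per group the difference between tissues was not tested, and both teratoma values were under 2-fold.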

How the results depend on the processing

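No paired analysis was possible because each group had 1 array. Recomputing the differences of the 7 genes under 7 alternatives gave 138 values, not counting differences that a setting left without a value. Of these, 115 moved by less than the pooled SD between probe sets of that comparison, 23 moved by more, and 0 turned a called difference round. The pooled SD was 0.29 in embryoid bodies and 0.28 in teratomas between knockout and control. Across tissues it was wider, at 0.66 in control cells and 0.65 in knockout cells, so larger shifts counted as small there. In embryoid bodies the count of the 7 genes that were lower stayed between 3 and 5. With the floor at the 65th percentile, Gp9, Gp5 and Treml1 had no value in any comparison. Itga2b then had none between teratomas or across tissues in knockout cells, and Ppbp none across tissues in control cells. With that floor Pf4 differed by -3.63 in embryoid bodies, and 8 of the listed platelet genes were lower there instead of 14. Across tissues, 0 of the 7 genes were then higher in the teratoma in either genotype. In knockout cells, 4 listed genes were lower in the teratoma than in the embryoid body instead of 8. At 1.5-fold, 23 listed genes were lower and 1 higher in embryoid bodies, 3 lower and 7 higher in teratomas, 23 lower in the teratoma in control cells and 16 higher in knockout cells, and 2 of the 7 genes were higher in the knockout teratoma. At 3-fold, 7 listed genes were lower in embryoid bodies, 0 differed in teratomas in either direction, 2 were higher in the teratoma in control cells, 3 were lower in knockout cells, and 0 of the 7 genes were higher in control cells. Between teratomas, 1 of the 7 genes, Plek, was higher with median centring or quantile normalization. There 2 listed genes were lower with quantile normalization and 0 with probe sets averaged, and 2 were higher with probe sets averaged, without shared-suffix probe sets, with the floor at the 25th percentile or with none. Median centring gave 23 lower and 2 higher listed genes in control cells across tissues, and the neutrophil median in knockout cells was -0.087 without a floor instead of 2.74. Over all genes, the floor at the 65th percentile gave 310 lower and 169 higher calls in embryoid bodies instead of 489 and 268. In teratomas, 131 lower and 397 higher calls became 76 and 262 with that floor, 86 and 266 with probe sets averaged and 206 and 374 with quantile normalization. Across tissues in control cells, 2456 lower and 2098 higher calls became 4100 and 1533 with median centring. At 1.5-fold the counts were 1024 lower and 850 higher in embryoid bodies and 616 and 1256 in teratomas, and at 3-fold 213 and 63, and 27 and 83. Across tissues they were 4324 and 3030 in control cells and 4295 and 3531 in knockout cells at 1.5-fold, and 906 and 1307, and 1047 and 1687, at 3-fold, against 2564 and 2566 in knockout cells at 2-fold. The cause of these shifts was not tested, apart from the higher or lower threshold itself. Low signal over background limits Gp9, Gp5, Treml1 and Ppbp most.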
